A study of Mus musculus with 6 samples.

Results

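The myogenic regulators and developmental myosins described here were 10 genes taken by symbol, *Myod1*, *Myf5*, *Myog*, *Myf6*, *Pax3*, *Pax7*, *Mymk*, *Mstn*, *Myh3* and *Myh8*, out of 53342 genes in the table. They were measured by RNA-sequencing of dental pulp from C57BL/6 mice aged 3 months, and the labels give no treatment. There were 3 wild-type (WT) samples, replicates 2, 4 and 5, and 3 MMP13KO samples (Mmp13-/-), replicates 1, 2 and 6, which lack matrix metalloproteinase-13, a collagenase of bone and dentin. The labels give molars as the source of the pulp and the methods of the study give incisors, so the tooth is not settled. The study describes the samples of each genotype as independent biological samples, and the null allele is carried by every cell of the animal.

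MyoD (*Myod1*), Myf5, myogenin (*Myog*) and MRF4 (*Myf6*) are the basic helix-loop-helix factors that commit cells to skeletal muscle and drive their differentiation, and they bind a short DNA word called the E-box. Pax3 and Pax7 act in muscle progenitors, and Pax7 marks the satellite cells from which adult muscle is repaired. Myomaker (*Mymk*) is a membrane protein needed for myoblast fusion, myostatin (*Mstn*) is a secreted inhibitor of muscle growth, and *Myh3* and *Myh8* encode the embryonic and perinatal myosin heavy chains. Dental pulp itself is a connective tissue without skeletal muscle fibres, whereas the jaw around the tooth holds large muscles.

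The libraries held 28442936 to 29980236 estimated counts in WT and 21561420 to 26547121 in MMP13KO. *Mmp13* was at 827 to 1139 counts in WT and at 10.2, 32.9 and 40.4 counts in MMP13KO replicates 1, 2 and 6. In every library, 19 of 19 odontoblast and pulp markers had a rounded count of at least 1, and so did 30 of 30 skeletal muscle fibre markers. This bar is low, and 14 of 14 satellite cell genes passed it too. The odontoblast and pulp markers made up 5.69 to 6.44% of all counts in WT and 2.41, 3.00 and 1.69% in MMP13KO replicates 1, 2 and 6. The fibre markers made up 9.43 to 11.1% of all counts in WT and 7.14, 6.82 and 2.27% in MMP13KO replicates 1, 2 and 6. The MMP13KO libraries also carried more counts on genes that pulp should not use. Over 1451 odorant and vomeronasal receptor genes the summed level was 17.8 to 20.8 CPM (counts per 1000000 counts of the library) in WT, against 308, 355 and 1196 CPM in MMP13KO replicates 1, 2 and 6. This receptor level, as counts per kb of exon, is called the background below and was 4.80 in MMP13KO replicate 6 against 0.0947 to 0.116 in WT. MMP13KO replicate 6 also stood apart from the other MMP13KO libraries, from which its counts differed by a chi-square of 520 and 403 per degree of freedom, against 49.0 between replicates 1 and 2. In bulk tissue, fewer muscle cells and less RNA per muscle cell cannot be told apart.

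The promoters of 6 of the 10 genes were found in the RefSeq table for GRCm38.p6, and those of *Myog*, *Myh3*, *Myh8* and *Mstn* are shown because they hold the E-box to which the MyoD family binds. Each run is the 250 bases before the RefSeq transcription start, written 5′ to 3′, with E-boxes (CANNTG) and the MEF2 consensus in capitals; both forms read the same on either strand.
Myog (chr1:134289754-134290003, plus strand): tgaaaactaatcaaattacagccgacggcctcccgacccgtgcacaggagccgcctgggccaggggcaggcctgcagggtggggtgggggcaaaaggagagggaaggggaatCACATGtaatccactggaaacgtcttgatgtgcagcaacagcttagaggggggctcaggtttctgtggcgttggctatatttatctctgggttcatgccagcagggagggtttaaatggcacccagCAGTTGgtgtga
Myh3 (chr11:67078050-67078299, plus strand): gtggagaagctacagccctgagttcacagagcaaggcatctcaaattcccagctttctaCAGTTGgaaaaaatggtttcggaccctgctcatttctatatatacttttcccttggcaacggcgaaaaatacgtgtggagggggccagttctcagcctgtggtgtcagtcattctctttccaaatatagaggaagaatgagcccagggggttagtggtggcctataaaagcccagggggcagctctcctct
Myh8 (chr11:67276874-67277123, plus strand): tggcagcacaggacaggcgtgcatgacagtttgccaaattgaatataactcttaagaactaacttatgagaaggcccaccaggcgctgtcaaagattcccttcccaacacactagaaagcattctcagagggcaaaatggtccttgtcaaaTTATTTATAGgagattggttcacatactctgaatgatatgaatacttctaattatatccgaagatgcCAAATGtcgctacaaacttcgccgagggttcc
Mstn (chr1:53061390-53061639, plus strand): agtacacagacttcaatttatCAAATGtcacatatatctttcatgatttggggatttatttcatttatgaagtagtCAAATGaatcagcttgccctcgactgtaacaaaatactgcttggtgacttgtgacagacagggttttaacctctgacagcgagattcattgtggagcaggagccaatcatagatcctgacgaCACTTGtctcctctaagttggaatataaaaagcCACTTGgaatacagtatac

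Counted back from the start, the *Myog* window held E-boxes at -138 and -12, the second of them the word CAGTTG. The word CAGTTG was also the single E-box of *Myh3*, at -191. *Myh8* held 1 E-box at -32 and 1 match to the MEF2 consensus at -99, the only full match to that consensus among the 6 promoters. Words that miss it by 1 base, such as ctatatttat in *Myog*, were not counted. *Mstn* held 4 E-boxes, at -229, -174, -52 and -19, and none was found in *Myf5* or *Pax7*. A TATAAA word, the core of a TATA box, stood at -29 in both *Myh3* and *Mstn*. An E-box occurred in 66.2% of 32851 mouse promoter windows of the same length, TATAAA on the strand of the gene in 7.59% and the MEF2 consensus in 2.92%, so an E-box by itself sets these promoters apart little. The GENCODE gene of *Myog* starts at 134289989, upstream of the RefSeq start, so its E-box at -12 lies inside that gene. That of *Pax7*, on the minus strand, starts at 139833528, so its whole window lies inside the gene. These are matches of letters only, and no binding was measured.

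In WT pulp the 10 genes spanned a wide range of levels, compared here as CPM per kb of exon. From here on, CPM uses library sizes scaled by the TMM factors of edgeR, unlike the receptor level above. The perinatal myosin *Myh8* was the highest at 75.5 ± 22.7 (SD, n = 3), followed by *Myf6* at 13.3 ± 3.35, *Myod1* at 6.81 ± 1.20 and *Mstn* at 5.04 ± 2.28. *Myh3* at 1.78 ± 0.62 and *Myog* at 1.53 ± 0.21 came next. *Pax3* at 0.342 ± 0.033, *Pax7* at 0.285 ± 0.043 and *Myf5* at 0.256 ± 0.154 lay close together, and *Mymk* was lowest at 0.0474 ± 0.0483. The WT ranges of neighbours overlapped for *Myod1* and *Mstn*, for *Myh3* and *Myog*, and along *Pax3*, *Pax7* and *Myf5*, so the order within these sets is not resolved.

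Against these WT levels, 3 of the 4 basic helix-loop-helix factors were lower in MMP13KO. *Myod1* fell 4.36-fold, *Myog* 2.39-fold and *Myf6* 2.10-fold, whereas *Myf5*, *Pax3* and *Pax7* did not pass the test. A call needed an adjusted p under 0.05 in edgeR's quasi-likelihood test together with a change over 2-fold. Of the 10 genes, 9 had enough counts to be tested, 3 were called lower and 0 higher, and 4 were lower at any fold. Across all 24534 genes tested, 9.68% were called lower over 2-fold, 20.4% were called higher (30.1% in either direction) and 24.3% were lower at any fold. The median log2 fold change of the 9 was -0.74, beside 0.10 for all genes tested. Across the table, log2 fold changes followed GC content. Their medians were 0.85 in the genes lowest in GC (the first of 4 equal groups) and -0.67 in those highest (the last group). Each change was therefore also computed with a GC correction and with the background subtracted. After GC correction the median of the 9 was -0.15, beside 0.22 for all genes tested.

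**Figure D1:**
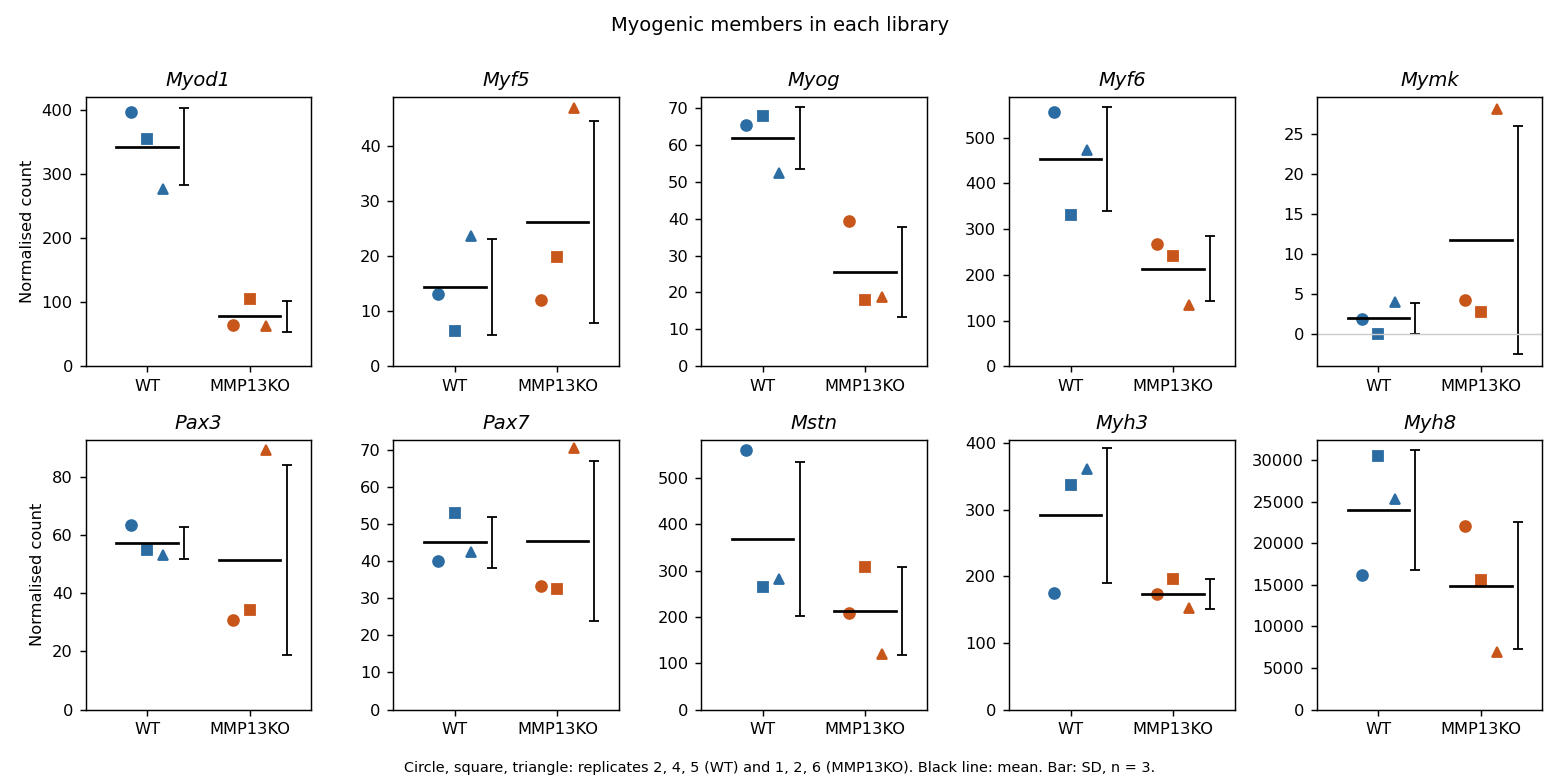
Normalised count of each of the 10 genes (vertical axes from 0 apart from *Mymk*, linear) in every WT and MMP13KO library, with the mean as a line and the SD (n = 3) as a bar. The genotypes are separate for *Myod1*, *Myog* and *Myf6* and overlap for the other genes, and MMP13KO replicate 6 (triangle) is the highest library for *Myf5*, *Mymk*, *Pax3* and *Pax7*.

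*Myod1*, the master regulator that can convert fibroblasts to muscle, lies at chr7:46376474-46379099 (mm10, plus strand). WT replicates 2, 4 and 5 held 425, 381 and 281 estimated counts of it, and MMP13KO replicates 1, 2 and 6 held 76.3, 117 and 40.1. Every MMP13KO library lay below every WT library, which also held for 29.1% of all genes tested. The normalised count averaged 343 ± 60.5 in WT and 77.8 ± 24.1 in MMP13KO (SD, n = 3), and the log2 fold change was -2.12 ± 0.24 (SE, edgeR adjusted p = 0.000164). *Myod1* passed the adjusted p threshold in 17 of 17 other analyses, but the size of its change varied from -2.47 to -1.14, the smallest being that after GC correction. Its longest annotated transcript is GC-rich, at 58.9%.

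*Myog*, which switches myoblasts to terminal differentiation, lies at chr1:134289989-134292548 (plus strand). It had 69.8, 73.4 and 53.0 counts in WT and 45.9, 20 and 11.7 counts in MMP13KO replicates 1, 2 and 6, with every MMP13KO library below every WT library. The normalised count was 61.8 ± 8.36 in WT and 25.4 ± 12.2 in MMP13KO, a log2 fold change of -1.26 ± 0.38 (SE, edgeR adjusted p = 0.0182). The call rested on low counts, and MMP13KO replicate 6 held only 1.63 times its background. With the background subtracted, the change was -1.40 (edgeR adjusted p = 0.0283). After GC correction the change was -0.59 (edgeR adjusted p = 0.251), and without WT replicate 4 the adjusted p was 0.0595 at a log2 fold change of -1.23.

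*Myf6* encodes MRF4, the member of the family that stays on in adult fibres, and lies at chr10:107492853-107494737 (minus strand). The WT libraries held 597, 356 and 480 counts of it and the MMP13KO libraries 313, 266 and 85.4, so the lowest WT library lay above the highest MMP13KO library. The normalised count was 454 ± 114 in WT and 214 ± 71.5 in MMP13KO, a log2 fold change of -1.07 ± 0.27 (SE, edgeR adjusted p = 0.00793). *Myod1* and *Myog* lie in the highest of the 4 equal GC groups, whereas *Myf6*, at 46.4%, lies in the second lowest. GC correction left the change of *Myf6* at -1.13 (edgeR adjusted p = 0.00663). The change is near the 2-fold line, and it was -0.97 without WT replicate 2 and -0.83 without MMP13KO replicate 6.

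*Myf5*, the neighbour of *Myf6* at chr10:107482908-107486134 and the first of the family to come on in the embryo, was hardly detected. WT libraries held 14.0, 7.28 and 24.4 counts and MMP13KO replicates 1, 2 and 6 held 14.0, 22.0 and 29.9. The genotypes overlapped, and the log2 fold change was 0.83 ± 0.65 (SE, edgeR adjusted p = 0.316). The library with most *Myf5* counts, MMP13KO replicate 6, had an expected background of 10 counts for this gene, and without it the log2 fold change was 0.15 (edgeR adjusted p = 0.841).

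The paired box genes were present at low counts, and neither was called. *Pax3* (chr1:78101267-78197134, minus strand) had 67.6, 58.9 and 54.0 counts in WT and 36.4, 38.1 and 57.2 in MMP13KO replicates 1, 2 and 6. *Pax7* (chr4:139737062-139833528, minus strand) had 42.8, 57.2 and 42.8 counts in WT and 39.5, 36.0 and 45.2 in MMP13KO. For both genes MMP13KO replicate 6 was the highest library after normalisation, and the other MMP13KO libraries were the lowest. The log2 fold changes were -0.19 ± 0.41 for *Pax3* (SE, edgeR adjusted p = 0.723) and -0.02 ± 0.37 for *Pax7* (edgeR adjusted p = 0.970). In MMP13KO replicate 6 the background alone came to an expected 29.7 counts for *Pax3* and 28.1 for *Pax7*. Without that replicate *Pax3* was lower at -0.81 (edgeR adjusted p = 0.0360) and *Pax7* was at -0.45 (adjusted p = 0.232).

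*Mymk* (chr2:27061636-27072179, minus strand) was at or near the limit of detection. WT replicates 2, 4 and 5 held 2, 0 and 4 counts, the count of 0 allowing for up to 3, and MMP13KO replicates 1, 2 and 6 held 5.41, 2.80 and 17.8. These MMP13KO counts were 2.38, 1.06 and 2.46 times the background, and there were too few of them for the gene to be tested in the fit used elsewhere. Fitted without the filter it had an edgeR adjusted p of 0.110, so no difference in *Mymk* was detectable at this depth.

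**Figure D2:**
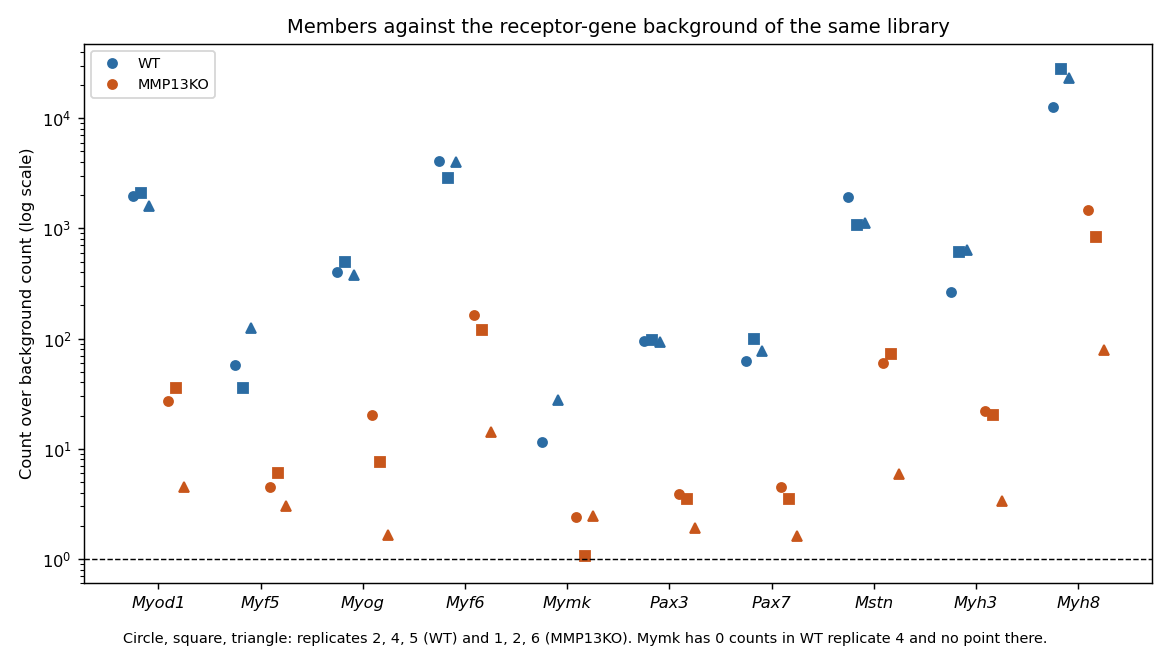
Count of each gene divided by the count expected from the background of the same library (vertical axis, log scale) in the 3 WT and 3 MMP13KO libraries, with a dashed line at 1. All genes but *Mymk* lie well above the line in every WT library, while in MMP13KO replicate 6 (orange triangle) *Myog*, *Pax3* and *Pax7* are at 1.63, 1.92 and 1.61 times the background.

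*Mstn* (chr1:53061640-53068079, plus strand) had 601, 284 and 285 counts in WT and 244, 342 and 77.2 in MMP13KO replicates 1, 2 and 6. WT replicate 2 was far above the other libraries, and MMP13KO replicate 2 lay above WT replicates 4 and 5. The normalised count was 369 ± 167 in WT and 213 ± 94.2 in MMP13KO, a log2 fold change of -0.78 ± 0.36 (SE, edgeR adjusted p = 0.0943). *Mstn* has the lowest GC content of the 10 genes, 38.1%, and after GC correction its change was -1.86 (edgeR adjusted p = 0.00318), beside -1.14 for *Myod1* in the same fit. It was also lower over 2-fold without WT replicate 5, at -1.01 (adjusted p = 0.0499), and without MMP13KO replicate 2, at -1.19 (adjusted p = 0.0148). Without WT replicate 2, its highest library, it was at -0.41 (adjusted p = 0.311), and without MMP13KO replicate 6 at -0.51 (adjusted p = 0.242).

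The genes that process, carry and answer myostatin were a list of 21, of which 9 were called lower and 1 higher, with a median log2 fold change of -0.84. *Furin*, the protease that cuts the myostatin precursor, was lower at -1.79 (edgeR adjusted p = 5.2e-05). The inhibitory *Smad7* was lower at -1.58, the myostatin-binding *Fstl3* at -1.39 and the latent TGF-beta binding protein *Ltbp3* at -1.44. The type II receptor *Acvr2b*, named after its value was seen, was at -1.61. *Tgfbr1*, named in the same way, was the gene called higher, at 1.47, and 0 of the 21 were called higher after GC correction. These genes are active in many tissues besides muscle, and after GC correction only 1 of the 21 was called lower over 2-fold, although 12 were lower at any fold.

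**Figure D3:**
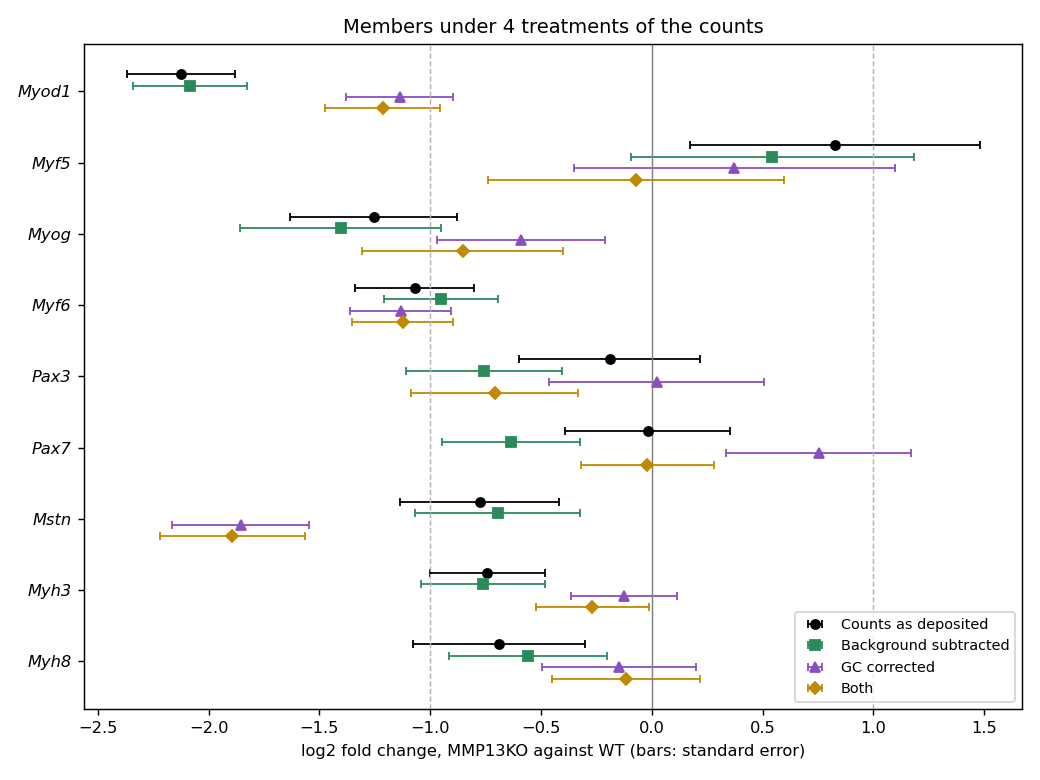
log2 fold change of MMP13KO against WT for the 9 tested genes (horizontal axis, bars give the SE) from the counts as deposited, after background subtraction, after GC correction and after both, with dashed lines at a 2-fold change. *Myod1* lies at or below -1.14 in all 4, *Mstn* moves from -0.78 to -1.86 with GC correction, and *Myog* and *Myh3* move to -0.59 and -0.13.

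The developmental myosins *Myh3* and *Myh8* sit in the fast myosin cluster of chromosome 11, with the adult fast chains *Myh2*, *Myh1* and *Myh4* between them and the extraocular chain *Myh13* at the far end. All 6 genes of the cluster had negative log2 fold changes, 3 were called lower and 5 were lower at any fold. The 3 called genes were the adult fast chains, *Myh4* at -2.21 ± 0.46 (SE, edgeR adjusted p = 0.00315), *Myh1* at -1.40 ± 0.37 (adjusted p = 0.0106) and *Myh2* at -1.03 ± 0.33 (adjusted p = 0.0258). *Myh13* was lower by less than 2-fold, at -0.81 ± 0.17 (adjusted p = 0.00354). Without MMP13KO replicate 6, 2 of the 6 were called lower, without MMP13KO replicate 1, 5 were, and after GC correction 1 was.

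*Myh3* (chr11:67078300-67102291, plus strand) had 188, 363 and 367 counts in WT and 202, 217 and 96.6 in MMP13KO. WT replicate 2 was as low as the MMP13KO libraries, so the genotypes overlapped. The normalised count was 292 ± 101 in WT and 174 ± 22.1 in MMP13KO, a log2 fold change of -0.74 ± 0.26 (SE, edgeR adjusted p = 0.0362) that passed the test at less than 2-fold. It missed the adjusted p threshold without WT replicate 4 (edgeR adjusted p = 0.102), WT replicate 5 (0.0876) or MMP13KO replicate 6 (0.103), and GC correction brought it to -0.13 (adjusted p = 0.702). Without WT replicate 2 it was over 2-fold lower, at -1.08.

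*Myh8* (chr11:67277124-67308634, plus strand) was by far the most counted of the 10 genes, with 17419, 32850 and 25662 counts in WT and 25810, 17295 and 4415 in MMP13KO replicates 1, 2 and 6. MMP13KO replicate 1 lay above WT replicate 2 even after normalisation, and MMP13KO replicate 6 was far below the rest. The normalised count was 24037 ± 7228 in WT and 14893 ± 7643 in MMP13KO, a log2 fold change of -0.69 ± 0.39 (SE, edgeR adjusted p = 0.162). Without MMP13KO replicate 1 it was called lower, at -1.15 (adjusted p = 0.0293), whereas without MMP13KO replicate 6 it was at -0.34 (adjusted p = 0.321) and after GC correction at -0.15 (adjusted p = 0.762). Myosin heavy chain genes are close paralogs, so reads shared between them may have been split in ways the sources do not describe, and levels of *Myh3* and *Myh8* are uncertain to that extent. Antisense genes also overlap 8.11% of the exons of *Myh1* and 3.32% of those of *Myh2*.

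Within a library the developmental chains held a larger share relative to the adult fast chains in MMP13KO. Those adult chains are the ones called lower above, and *Myh3* and *Myh8* had negative log2 fold changes too, of -0.74 and -0.69. How many of all genes would separate the genotypes against the same denominator was not computed. Per 1000 counts of *Myh1*, *Myh2* and *Myh4* together, *Myh3* and *Myh8* had 21.9, 46.6 and 39.0 counts in WT and 82.2, 53.0 and 55.1 in MMP13KO. The MMP13KO libraries all lay above the WT libraries, with a mean of 63.4 ± 16.3 against 35.8 ± 12.6 (SD, n = 3), a mean log2 difference of 0.86. *Myh8* made up nearly all of this ratio. *Myh3* alone had 0.234, 0.509 and 0.549 counts per 1000 in WT and 0.639, 0.657 and 1.18 in MMP13KO, again without overlap. This ratio does not depend on scaling between libraries, and it was described without a test, for which 3 samples against 3 could not go below an exact permutation p of 0.10. Over all 30 fibre markers as the denominator, the developmental chains of the genotypes overlapped.

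**Figure D4:**
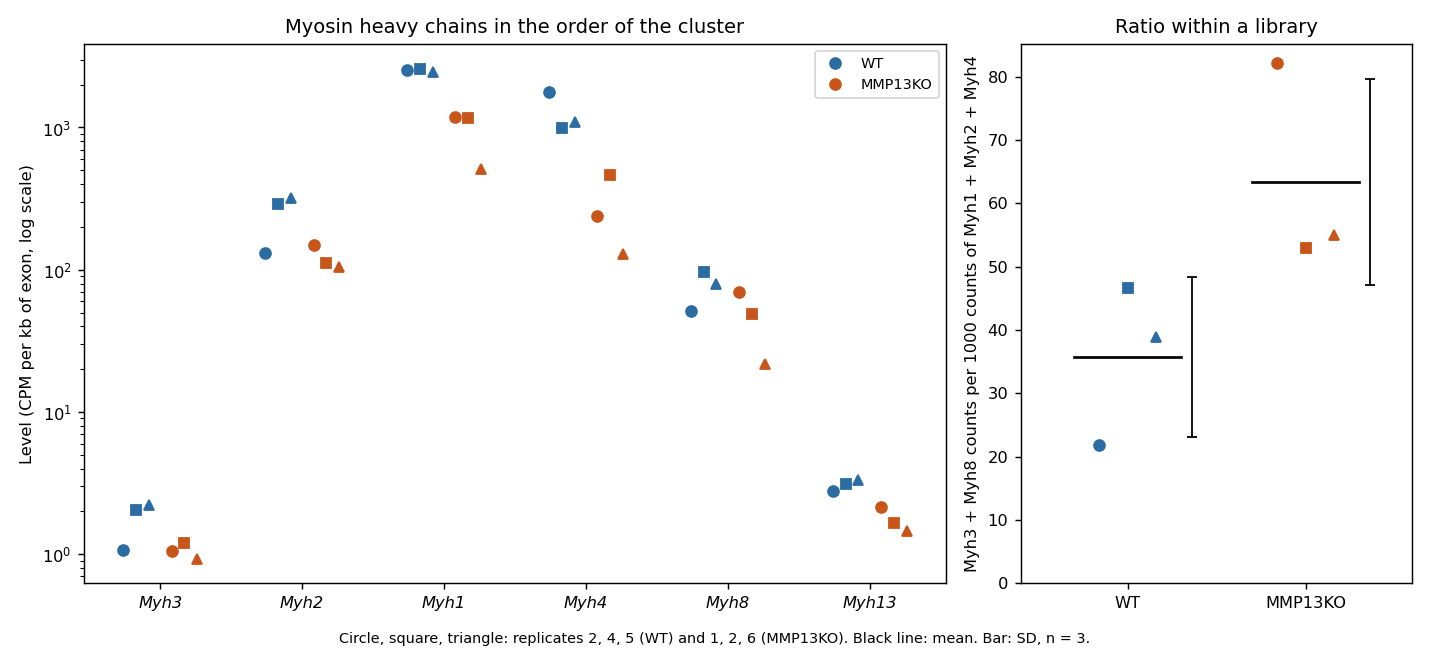
Left, level of the 6 myosin heavy chain genes of the cluster in CPM per kb of exon (log scale) in each WT and MMP13KO library. Right, counts of *Myh3* and *Myh8* per 1000 counts of the adult fast chains in the same library (mean as a line, SD as a bar, n = 3), where the MMP13KO libraries at 53.0 to 82.2 lie above the WT libraries at 21.9 to 46.6.

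The lower myogenic factors were measured alongside lower muscle fibre RNA as a whole. Of the 30 fibre markers, 21 were called lower and 0 higher, with a median log2 fold change of -1.42, and their summed level was 96553 to 114376 CPM in WT and 28308 to 60497 CPM in MMP13KO. The ubiquitin ligase *Trim63* was lower at -1.57 (edgeR adjusted p = 7.9e-05), *Klhl41* at -1.57, desmin (*Des*) at -1.96 and titin-cap (*Tcap*) at -1.71. After GC correction 12 of the 30 were called lower, with a median of -0.89. The part of this in the results for the 10 genes was not tested by a model, but each gene could be set against the summed fibre markers of its own library.

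Per 1000000 fibre marker counts, *Myf6* was at 180, 127 and 173 in WT and at 166, 147 and 175 in MMP13KO replicates 1, 2 and 6. The means were 160 ± 29.1 and 163 ± 14.1 (SD, n = 3), a mean log2 difference of 0.04. *Myog* overlapped as well, at 21.1, 26.2 and 19.1 in WT and 24.4, 11 and 23.9 in MMP13KO. With the background subtracted, MMP13KO replicate 6 was at 9.29 for *Myog* and the mean log2 difference was -0.78 in place of -0.24, with the genotypes still overlapping. *Myod1* did not, since it was at 128, 136 and 102 in WT and at 40.6, 64.8 and 82.1 in MMP13KO, a mean log2 difference of -1.01. On counts without GC correction, *Myod1* was thus lower in MMP13KO relative to fibre RNA in all 3 libraries, while *Myf6* and *Myog* overlapped on this scale. The same held for *Myod1* against *Myf6* directly, at 0.713, 1.07 and 0.586 counts of *Myod1* per count of *Myf6* in WT and 0.244, 0.440 and 0.470 in MMP13KO. *Myod1* is richer in GC than *Myf6*, and its change was -1.14 beside -1.13 for *Myf6* after GC correction, so the estimates of the pair were close in size in that fit. The difference between them was not tested. With GC correction *Myod1* was at -1.14 beside a fibre marker median of -0.89, against -2.12 and -1.42 without it. The ratios to fibre markers were not tested either, and the share of all genes that separate on that scale was not computed.

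*Mstn*, *Myh3* and *Myh8* per 1000000 fibre marker counts overlapped between the genotypes, with mean log2 differences of 0.35, 0.46 and 0.35. *Pax3* was at 20.4, 21 and 19.5 in WT and at 19.4, 21 and 117 in MMP13KO replicates 1, 2 and 6. Before background subtraction, only MMP13KO replicate 6, the library with the highest background, stood far from WT. *Pax7* and *Myf5* showed the same library at the top, at 92.4 and 61.2 on the same scale, against 12.9 to 20.4 and 2.59 to 8.82 in WT. With the background subtracted, MMP13KO replicate 6 was at 56.3 for *Pax3*, 35.0 for *Pax7* and 40.9 for *Myf5*. For *Pax3*, MMP13KO replicates 1 and 2 were then at 14.4 and 15.0, below the 19.3 to 20.8 of WT.

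**Figure D5:**
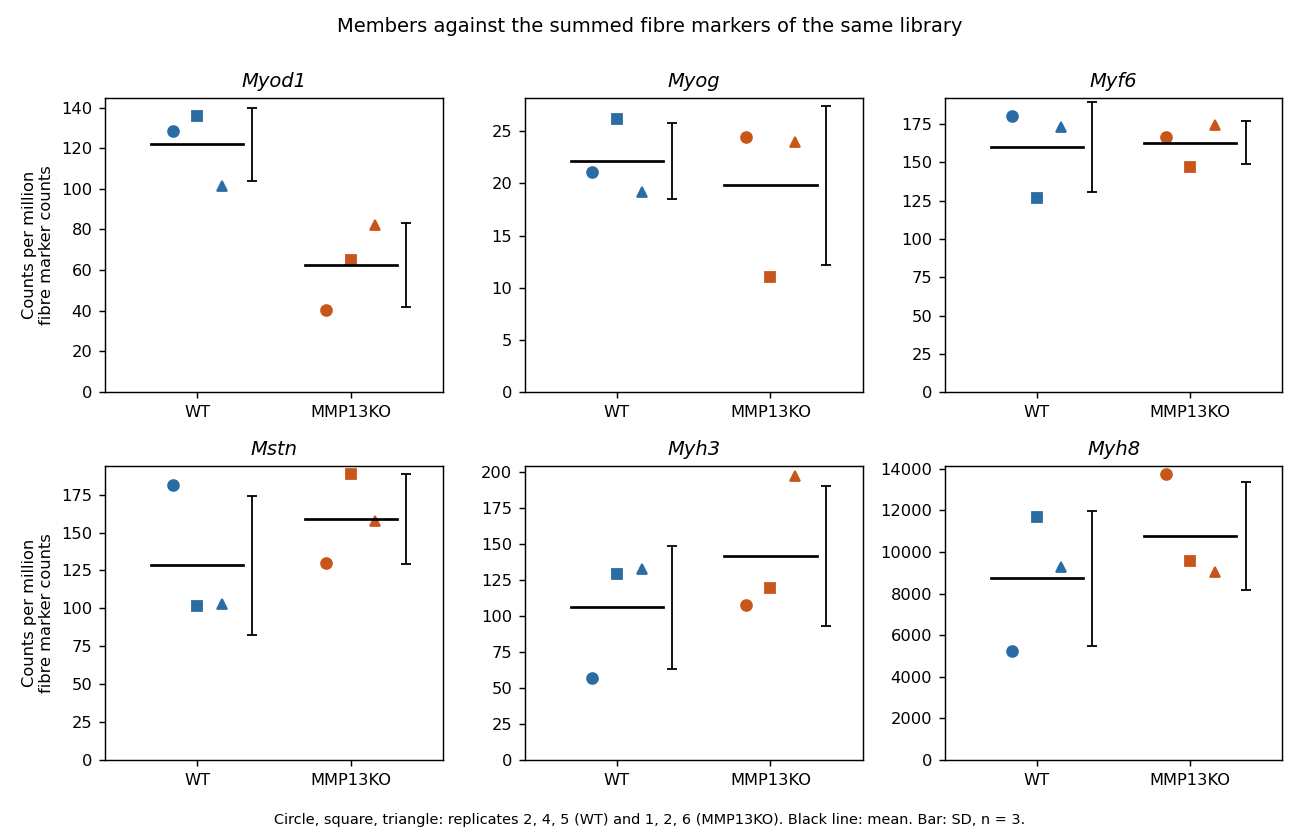
Counts of 6 of the genes per 1000000 counts of the 30 fibre markers in the same library (vertical axes from 0), with the mean as a line and the SD (n = 3) as a bar. *Myod1* is at 102 to 136 in WT and at 40.6 to 82.1 in MMP13KO, whereas the genotypes overlap for *Myog*, *Myf6*, *Mstn*, *Myh3* and *Myh8*.

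Of 26 other regulators of the muscle programme, 25 were tested, 8 were called lower and 0 higher, and at any fold 13 were lower and 3 higher, with a median log2 fold change of -0.65. *Tbx1*, which specifies head muscle, was lower at -1.77 (edgeR adjusted p = 0.000121), the MyoD partner *Mef2d* at -1.49 and *Vgll2*, a cofactor of TEAD factors in muscle, at -1.75. *Tbx1* is also used in developing teeth. Without MMP13KO replicate 6, 7 were called lower, and after GC correction 4 were.

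Genes of fusion and of the neuromuscular synapse were a list of 17, of which 4 were called lower and 1 higher, with a median of -0.52. *Rapsn*, which clusters acetylcholine receptors, was lower at -1.73 (edgeR adjusted p = 0.000112), *Dok7* at -1.52 and the muscle sodium channel *Scn4a* at -1.87. M-cadherin (*Cdh15*) was lower by less than 2-fold, at -0.95. Only 1 of the 17 was called lower after GC correction. Satellite cell genes other than *Pax7* went both ways, 3 of 14 called lower and 3 higher, with a median of -0.06. *Vcam1* was higher at 1.98 (adjusted p = 6.2e-05), whereas *Spry1* at -1.29, *Itga7* at -1.72 and *Sdc3* at -1.36 were lower, and all 4 are also expressed outside muscle. After GC correction 0 of the 14 were called lower and 3 higher.

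Developmental isoforms and fetal growth genes beside *Myh3* and *Myh8* did not share a direction, with 2 of 12 called lower, 2 higher and a median of 0.20. The imprinted RNA *H19* was lower at -1.50 (edgeR adjusted p = 0.000771), its neighbour *Igf2* at -1.18 and the light chain *Myl6b* at -0.84. *Chrng*, the fetal subunit of the acetylcholine receptor, was higher at 2.05 (adjusted p = 0.0136) from counts that were 3.91, 2.56 and 1.42 times the background in MMP13KO replicates 1, 2 and 6. With the background subtracted, or without WT replicate 4, 0 of the 12 were called higher. After GC correction 0 were called lower and 2 higher, and 1 of the 12 was lower at any fold. The calls of *Chrng*, *H19* and *Igf2* thus each depended on the treatment of the counts. Among 9 adult myosin heavy chains 4 were called lower and 0 higher, with a median of -0.81. The called genes were *Myh4*, *Myh1*, *Myh2* and the non-muscle chain *Myh14* at -1.40. After GC correction 1 of the 9 was called lower and 1 higher.

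Markers of other cells of the pulp are given for comparison. Of 12 smooth muscle and pericyte markers 3 were called lower and 2 higher (median 0.35), with *Smtn* at -1.54, *Cspg4* at -1.26, *Rgs5* at 1.49 and *Pdgfrb* at -0.83. After GC correction 0 of the 12 were called lower and 3 higher (median 0.76). Their summed level was 774 to 868 TMM-scaled CPM in WT and 547 to 698 in MMP13KO. As a share of all counts, without that scaling, it was 0.0746 to 0.0849% in WT. In MMP13KO replicates 1, 2 and 6 that share was 0.0717, 0.0787 and 0.0438%, so the genotypes overlapped. Of 14 Schwann cell and melanocyte markers, a class in which *Pax3* is also used, 11 were tested, 0 were called lower and 1 higher, *Cdh19* at 2.54, while without WT replicate 2, 4 were called lower. *Sox10* was at -0.84 and *Erbb3* at -0.71, both lower by less than 2-fold, and the melanocyte genes *Tyr* and *Mlana* were at 0 in every WT library. Of 19 odontoblast and pulp markers 4 were called lower and 3 higher (median -0.44), with *Ibsp* at 1.56, *Wnt10a* at -1.32, *Col1a1* at -2.16 and nestin (*Nes*) at -1.21. After GC correction 1 of the 19 was called lower and 2 higher, and the median turned to 0.13. Their summed level was 59086 to 65877 CPM in WT and 20091 to 26633 CPM in MMP13KO. *Col1a1* alone made up most of this sum in every WT library. *Dspp*, named after its value was seen, was called higher at 1.13 (edgeR adjusted p = 0.0370), with the genotypes overlapping. Whether these cell types have a part in the changes of the 10 genes was not tested.

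The genes most like each member across the 6 libraries are given as a description, by Pearson r of log2 CPM over 6 samples among 15169 genes. *Insc*, *Nlgn2* and *Camk2n1* were closest to *Myod1* (r up to 0.999), *Dusp2*, *Imp4* and *Gm42890* to *Myog* (up to 0.996) and *Mpc2*, *Gm42908* and *Elp5* to *Myf6* (up to 0.999). *Srpr*, *Asb14* and *Rtca* were closest to *Mstn* (up to 0.998), *Tmem86b*, *Zbtb5* and *Fam198a* to *Myh3* (up to 0.996) and *Pea15a*, *Usp38* and *Eaf1* to *Myh8* (up to 0.997). For the scarce genes they were *Gm17137*, *Degs2* and *Rgs6* for *Myf5*, *Nr2f1*, *Pde6b* and *Lca5l* for *Pax3*, and *Klk1b22*, *Atp2c2* and *Mmp17* for *Pax7*, with r up to 0.976, 0.992 and 0.989. The points share genotype, depth and background, and with 6 points and so many genes a high r is easily reached.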

How the data were processed

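Dental pulp RNA of 3 WT and 3 MMP13KO mice was sequenced on an Illumina HiSeq instrument. The authors deposited estimated counts per Ensembl gene and log2 values, which they made in Strand NGS on mm10 from those counts by DESeq size factors with a threshold of 1, centred on each gene's median. All of the log2 values could be recomputed from the counts within 0.01. The aligner settings, annotation release and strandedness are not given in the sources used here. Columns of the authors' own comparisons (fold changes and p-values) were not used.

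Estimated counts were rounded and tested with edgeR 4.0.16 in R 4.3.3 (TMM factors, filterByExpr, quasi-likelihood test, Benjamini-Hochberg adjustment over all 24534 genes tested), with no covariate. Means ± SD are of TMM-normalised counts, and CPM uses TMM-scaled library sizes except for the receptor genes. Positions, exon length and the GC content of the longest transcript came from GENCODE M21 on GRCm38, matched by Ensembl ID for 99.8% of genes. Promoters came from RefSeq. Background is the count per kb of exon over 1451 receptor genes. The GC correction fitted a loess curve of log2 level against GC in each library. Other analyses used DESeq2 1.42.0, limma 3.58.1 on the deposited log2 values, the test of the study, other scalings and filters, and fits without each library. The fitting code was tested on simulated data.

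The members, the gene lists and the tests were chosen with earlier results of these data known. All 10 members are named, with up to 4 genes of smallest adjusted p from every other list, all genes of the myosin cluster, and the 3 genes most correlated with each tested member among those with at least 50 counts in every WT library. Some genes that this rule names are not reported here. No explanation was tested.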

Additional observations from a re-analysis of the deposited data

How the results depend on the processing

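*Myod1* passed the adjusted p threshold in 17 of 17 other analyses, *Myf6* in 16 of 17 (limma adjusted p = 0.0735), *Myog* in 14 of 17, *Myh3* in 8, *Mstn* in 5, *Myh8* in 2, *Pax3* in 1, *Pax7* in 0, and *Myf5* in 0 of 16. The count of members lower at any fold, 4 with edgeR, was 2 with limma on the deposited log2 values and 6 with no filter on low counts. It was 3 after GC correction and 2 to 5 when each library was left out, and the cause was not tested. The log2 fold change of *Myf5* was -0.0716 after background subtraction with GC correction. That of *Pax3* was 0.0712 with upper-quartile factors and 0.0218 after GC correction, and it ran from -0.81 to 0.0113 when each library was left out. That of *Pax7* was 0.23 with upper-quartile factors, 0.0195 with total counts, 0.10 with at least 10 counts in every sample and 0.75 after GC correction, and it ran from -0.45 to 0.11 when each library was left out. Why these signs turned was not tested. Upper-quartile factors moved the median of all genes from 0.10 to 0.32 and total counts moved it to 0.21. Genes called lower and higher over 2-fold were 2375 and 5006 with edgeR, 1762 and 5975 with total counts, 1338 and 5867 scaled by upper quartiles, 802 and 4015 after GC correction, 982 and 2567 after GC correction with background subtraction, 1929 and 3700 after background subtraction alone, 1660 and 3006 with at least 10 counts in every sample, 3067 and 11258 with no filter, 2581 and 9133 with DESeq2, 2661 and 7136 with limma and 3075 and 12332 with the procedure of the study. The number of genes tested differed between these fits. It was 24534 with edgeR, total counts, upper quartiles and GC correction alone, and 22856 with background subtraction. It was 19564 with at least 10 counts in every sample, 49715 with no filter, DESeq2 and limma, and 48613 with the procedure of the study. The study itself reported fewer genes over 2-fold in each direction, so its counts were not reproduced here. No paired analysis was made, because the labels and the study give no pairing of samples across the genotypes. Counts of *Mymk* and *Myf5* were too few to show a modest difference.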
